A study of Homo sapiens with 12 samples.

Results

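The genes described here are 6 members of the aryl hydrocarbon receptor (AhR) pathway, followed in A549, an established line from a human lung adenocarcinoma, while the cells were given TGFβ at 4 ng/mL. They are CYP1B1, CYP1A1, AHR, AHRR, ARNT and TIPARP, 6 of the 29035 genes in the count table, taken by gene symbol. The set was chosen by the CYP1B1 time course itself, so the CYP1B1 levels below are given as a description without a test. Cells were harvested at 0 h of TGFβ (the baseline) and at 5 later times from 0.5 h through 12 h, 24 h and 48 h up to 96 h, and all cells were the same unmodified line with no other agent given in the labels. The labels list no untreated library at a later time, so TGFβ and time in culture cannot be told apart. Each time had 2 CEL-Seq2 libraries of 384 sorted single cells, 12 libraries and 4608 wells in all, in which each captured mRNA molecule is counted once by its unique molecular identifier (UMI). Nothing in the labels shows that the 2 replicates came from separate cultures, so each p-value reflects the spread of these libraries alone, and that spread may be technical.

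AhR is a ligand-activated transcription factor of the bHLH-PAS family. In the cytoplasm it is held by HSP90 and partner chaperones, and after binding planar aromatic compounds or tryptophan metabolites it enters the nucleus, pairs with ARNT and binds a short core element in the DNA near its target genes. CYP1A1 and CYP1B1, P450 enzymes that oxidize polycyclic hydrocarbons and estrogens, are the best known targets, and AHRR and TIPARP are targets that in turn repress the receptor. In lung epithelium the pathway is known for the response to smoke constituents.

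After limits on UMIs, detected genes and mitochondrial share, 1871 cells were kept, 131 to 217 per library from 0 h to 48 h but only 54 and 64 at 96 h. The kept cells were 34.1% to 56.5% of the wells from 0 h to 48 h and 14.1% and 16.7% at 96 h. Their sums over protein-coding genes ranged from 1264044 to 4500036 UMIs per library, the smallest at 96 h, where a floor of 3 UMIs over both libraries corresponds to 1.08 CPM (UMIs scaled to a fixed library total). Of 5 epithelial markers, 4 were called lower at 96 h against 0 h in edgeR's test, where 11.1% of all tested genes were. KRT8 and KRT18, which were among the 4, ranged over 406.8 to 1884 CPM across all libraries, CDH1 had 0 and 1.33 CPM after 96 h, against 39.2 and 32.7 CPM at 0 h, KRT19 had 3.89 and 5.33 CPM after 96 h, against 39.7 and 64.3 CPM at 0 h, and EPCAM, which was not called, had 1 and 2 UMIs after 96 h. The 3 lung lineage genes in the table summed to at most 0.666 CPM. Of 20 lung lineage, immune, endothelial and fibroblast markers, 11 had a row, and their summed level was 0.459 to 3.34 CPM from 0 h to 24 h and 2.66 to 7.001 CPM at 48 h and 96 h. The fibroblast marker LUM was called higher at 48 h and 96 h against 0 h (edgeR adjusted p = 0.0151 and 0.0231), but not by DESeq2. Of all tested genes 10.0% and 12.5% were called higher in edgeR's test. The LUM calls rest on 14 and 8 UMIs over both libraries, against 1 at 0 h. No other fibroblast marker was in the fit. After 48 h COL3A1 and DCN had 0 UMIs, PDGFRA 8 and THY1 9, and after 96 h COL3A1 and PDGFRA had 0, DCN 1 and THY1 3. The part of these markers, epithelial ones included, in the results was not tested.

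CYP1B1 was high at 0 h and 0.5 h, 6.19-fold lower after 12 h, and partly back after 96 h. The gene lies on the minus strand of chromosome 2 (GRCh38, 38066973 to 38109902, GENCODE 44) and has 3 exons. Its library sums, in CPM scaled by TMM, were 93.6 and 81.1 at 0 h, 105.7 and 100.1 after 0.5 h, 16.0 and 12.1 after 12 h, 14.7 and 19.6 after 24 h, 12.7 and 18.1 after 48 h, and 73.1 and 45.9 after 96 h (replicate 1, then replicate 2). The 3 middle times overlapped one another, and both 96 h libraries lay above every library from 12 h to 48 h and below both at 0 h. From high to low the mean levels were 102.9 ± 4.0 after 0.5 h, 87.4 ± 8.9 at 0 h, 59.5 ± 19.2 after 96 h, 17.2 ± 3.5 after 24 h, 15.4 ± 3.8 after 48 h and 14.1 ± 2.8 after 12 h (SD, n = 2 each). Neighbors in this order did not overlap among the first 4, and the last 3 did not differ beyond their spread.

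On the log2 scale CYP1B1 differed from 0 h by 0.24 ± 0.19 (SE) after 0.5 h, -2.63 ± 0.23 after 12 h, -2.37 ± 0.23 after 24 h, -2.54 ± 0.24 after 48 h and -0.56 ± 0.22 after 96 h. The linear ratio of 0 h over 12 h was 6.19. Set against the times just before it, 96 h differed from 48 h by 1.97 ± 0.26, a ratio of 3.93, and from 12 h by 2.07 ± 0.25. At the middle of the course, 24 h against 12 h (0.26 ± 0.26) and 48 h against 24 h (-0.17 ± 0.28) each differed by no more than their SE. In bulk sums such as these, fewer cells that carry a transcript and less transcript per cell cannot be told apart. Kept cells held 0.21 to 0.34 CYP1B1 UMIs on average from 12 h to 48 h, against 1.69 to 2.57 at 0 h and 0.5 h. At such low counts the share of cells with a UMI, given next, also falls when each cell holds less transcript. It therefore does not separate these possibilities either.

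**Figure D1:**
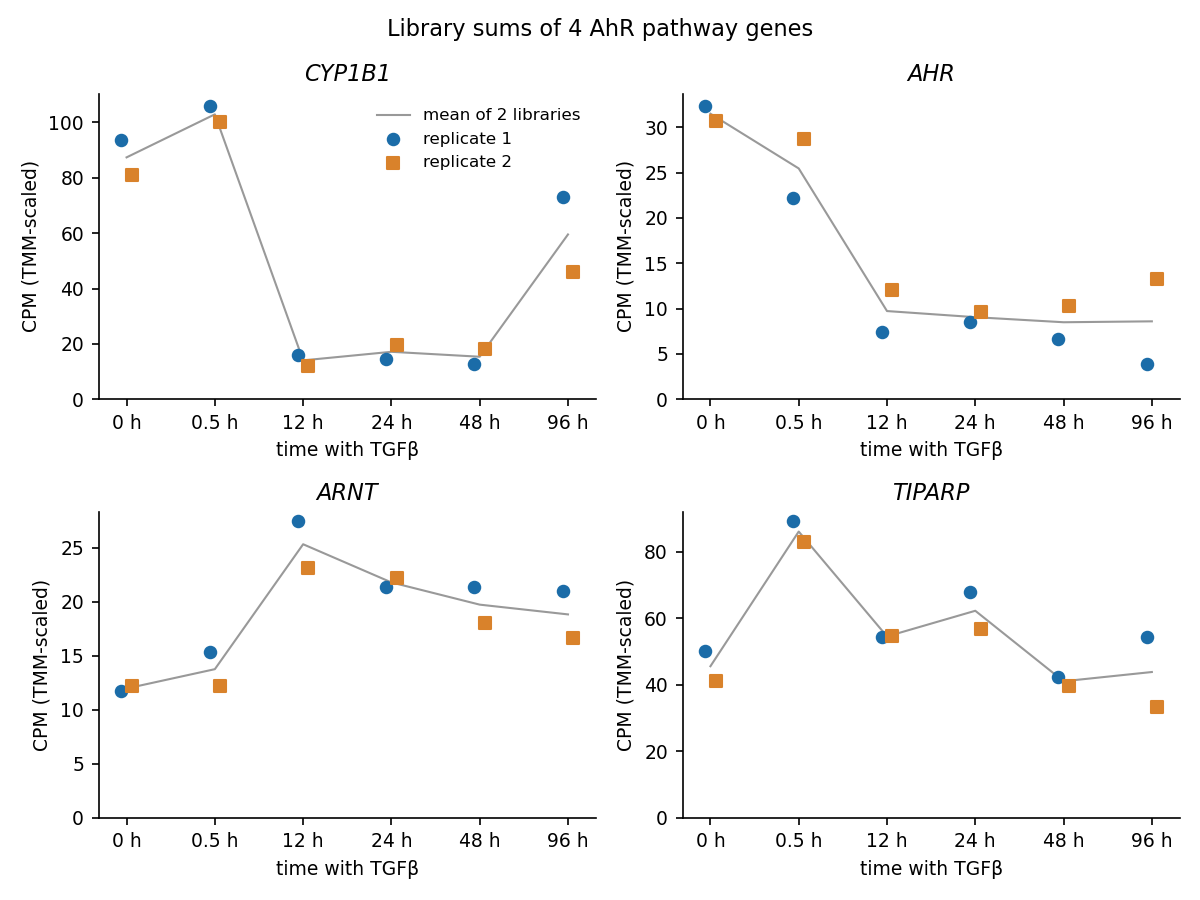
Level in each library (vertical axis, TMM-scaled CPM from 0) by time with TGFβ (horizontal axis, not to scale) for CYP1B1, AHR, ARNT and TIPARP, with circles for replicate 1, squares for replicate 2 and a gray line through the means of 2 libraries. CYP1B1 lies between 12.1 and 19.6 CPM from 12 h to 48 h and stands at 73.1 and 45.9 CPM at 96 h, while AHR stays low at 96 h, ARNT stays above its 0 h level and TIPARP peaks at 0.5 h.

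Per cell, the same course was seen in the share of cells with at least 1 CYP1B1 UMI. To compare libraries at one depth, each cell was thinned to 1 fixed number of UMIs, and shallower cells were left out, which left 1684 cells. A UMI was found in 86 of 175 cells (49.1%, exact 95% interval 41.5 to 56.8) and 70 of 157 (44.6%, 36.7 to 52.7) at 0 h. At 0.5 h the shares were 54.7% (45.7 to 63.5) and 55.0% (47.4 to 62.4). They were 16.9% and 12.5% after 12 h, 12.2% and 16.2% after 24 h and 17.8% and 14.0% after 48 h, all 6 between 12.2% and 17.8%. At 96 h, 17 of 51 cells (33.3%, 20.8 to 47.9) and 14 of 63 (22.2%, 12.7 to 34.5) had a UMI. Both 96 h shares lay above all 6 from 12 h to 48 h and below both at 0 h, though the interval of replicate 1 after 96 h, which covers counting error only, reached those at 0 h, and that of replicate 2 did not. Both reached intervals of libraries from 12 h to 48 h. Without thinning the shares were 42.6% and 37.5% after 96 h, 17.4% to 23.9% from 12 h to 48 h, 79.6% and 65.5% after 0.5 h and 64.1% and 61.4% at 0 h.

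Wells with fewer than 1000 detected genes served as a background for free RNA. Of these, 11.05% and 16.2% had a CYP1B1 UMI at 0 h, 13.5% and 12.4% after 0.5 h, 0% to 4.30% from 12 h to 48 h, and 2.76% and 2.57% after 96 h. Their median depth was 496 to 1312 UMIs per well, far below that of the kept cells (14137 to 28045), so the shares are not at matched depth. In each of the 12 libraries the share of cells lay above that of the background wells. Since a deeper well is more likely to hold a UMI, this does not show how much free RNA adds to the counts of cells.

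The return at 96 h rested in part on 2 cells. In replicate 1 a single cell held 34 of the 94 CYP1B1 UMIs (36.2%), with 11 and 8 in the next 2 cells, and in replicate 2 a single cell held 22 of 69 (31.9%), with 6 and 5 in the next. At the other times the highest cell held 3 to 15 UMIs, 3.81% to 12.5% of its library. The variance of the UMIs per cell was 14.1 and 8.14 times the mean at 96 h, 1.23 to 2.44 times from 12 h to 48 h, and 2.79 to 3.61 times at 0 h and 0.5 h. Both high cells at 96 h were deep (32932 and 33785 UMIs, 5383 and 5664 genes). Without the highest cell of every library, a comparison added after the data were seen, CYP1B1 stood at 47.1 and 31.8 CPM after 96 h, 11.4 and 16.0 after 48 h, 15.4 and 11.5 after 12 h, and 90.0 and 78.2 at 0 h. The 96 h level was then different by 1.54 from 48 h and by -1.10 from 0 h on the log2 scale. The shares of thinned cells moved little (32.0% and 21.0% at 96 h).

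**Figure D2:**
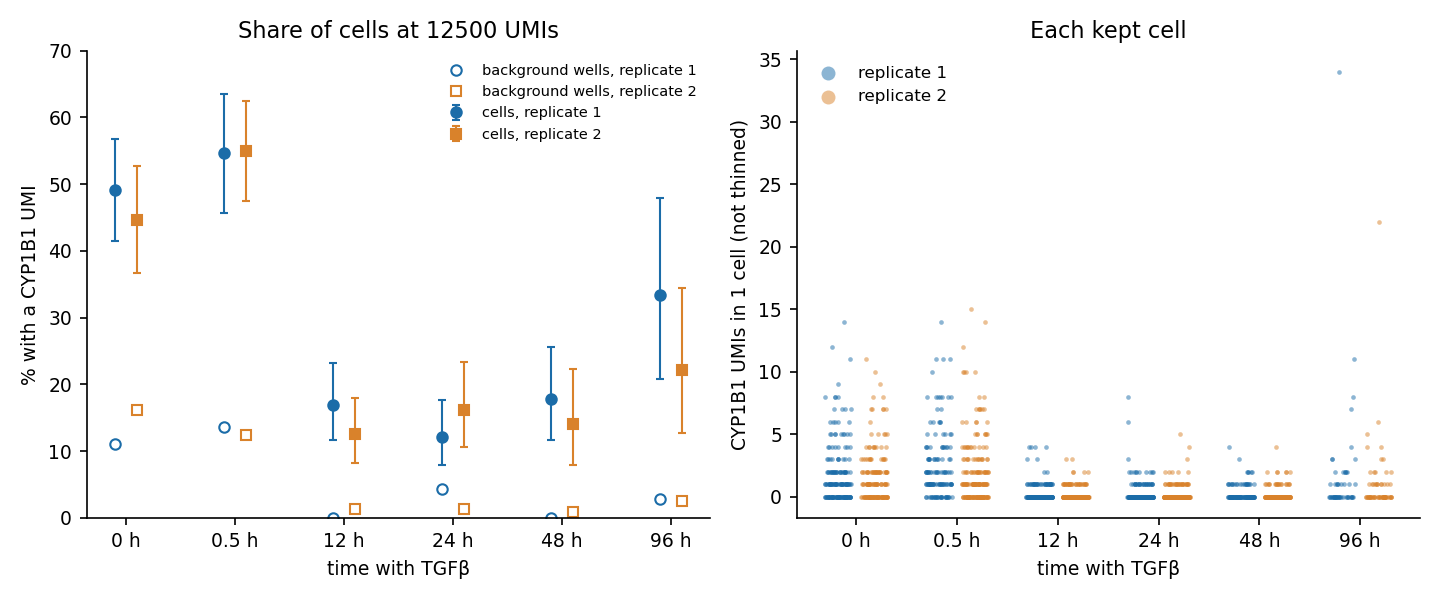
Left, percent of cells with a CYP1B1 UMI after thinning to 1 fixed depth (filled symbols with exact 95% intervals) and percent of background wells with one (open symbols), by time, for replicate 1 (circles) and replicate 2 (squares). Right, CYP1B1 UMIs in each kept cell before thinning, 1 point per cell with sideways scatter. The shares lie between 12.2% and 17.8% from 12 h to 48 h, and 1 cell in each 96 h library stands apart with 34 and 22 UMIs.

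Under stricter limits on cells (at least 3000 genes and at most 20% mitochondrial), which left 6 to 58 cells per library, the mean CYP1B1 level at 96 h was 29.1 CPM, with 28 and 3 UMIs in the 2 libraries, and the difference of 96 h from 48 h was 0.91. The neighborhood of the locus was also examined, since the strand setting of the counts is not given in the sources used here. CYP1B1-AS1, an antisense transcript that overlaps CYP1B1 over 36456 bases, had 0 to 4 UMIs per library. RMDN2, which meets the 3′ end of CYP1B1 over 170 bases on the other strand, had 10.1 and 4.0 CPM after 96 h and 4.33 and 3.94 CPM after 12 h, against 7.94 and 8.98 CPM at 0 h. RMDN2 did not pass the threshold in any of the 9 comparisons, and its -1.02 ± 0.40 at 12 h against 0 h had an adjusted p of 0.0897 in edgeR's quasi-likelihood test. Within the stretches that overlap, reads of CYP1B1 and these partners cannot be told apart without strand.

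AHR, the receptor itself, fell at 12 h and stayed low to 96 h. The gene lies on the plus strand of chromosome 7 (16916359 to 17346152). Its library sums were 32.3 and 30.7 CPM at 0 h, 22.2 and 28.7 after 0.5 h, 7.39 and 12.1 after 12 h, 8.49 and 9.63 after 24 h, 6.69 and 10.3 after 48 h, and 3.89 and 13.3 after 96 h. Every library from 12 h onward lay below every library at 0 h and 0.5 h. The counts behind these values were 118 and 106 UMIs at 0 h but only 5 and 20 at 96 h.

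With edgeR's quasi-likelihood fit and Benjamini-Hochberg adjustment across the whole table, AHR changed by -1.69 ± 0.29 (SE) on the log2 scale after 12 h against 0 h (adjusted p = 0.000201), by -1.81 ± 0.30 after 24 h (adjusted p = 0.000128), by -1.93 ± 0.33 after 48 h (adjusted p = 0.00011) and by -1.82 ± 0.36 after 96 h (adjusted p = 0.00061). At 0.5 h the difference was -0.30 ± 0.26 (edgeR adjusted p = 1). Of the 10465 genes tested, 5.83% were called lower after 12 h, 5.56% after 24 h, 8.48% after 48 h and 11.1% after 96 h. AHR did not pass in any comparison among 12 h, 24 h, 48 h and 96 h, and 96 h differed from 12 h by -0.13 ± 0.41 (adjusted p = 0.883 in edgeR), where CYP1B1 differed by 2.07 ± 0.25. Leaving out a library moved the AHR values at 96 h. The change was -3.02 against 0 h and -1.35 against 12 h without replicate 2 of 96 h, and -1.25 and 0.42 without replicate 1 of 96 h. The difference between the courses of AHR and CYP1B1 was itself not tested, since CYP1B1 was chosen by its course.

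All comparisons with 0 h share the same 2 libraries. The 4 AHR calls held when each library was left out. With library sums thinned to the smallest, the 12 h change was -1.10 (edgeR adjusted p = 0.0822), and under the stricter limits on cells the adjusted p was 0.603 after 12 h, 0.207 after 24 h and 0.0983 after 48 h. By cell, AHR was found after thinning in 23.4% and 31.2% of cells at 0 h, in 21.1% and 28.3% at 0.5 h, and in 3.93% to 9.90% from 12 h to 48 h. At 96 h, 1 of 51 cells (1.96%, exact interval 0.0496 to 10.4) and 7 of 63 (11.1%, 4.59 to 21.6) had a UMI. Background wells had AHR in 0% to 6.59%. An unnamed antisense gene that overlaps AHR over 329049 bases had 0 to 13 UMIs per library. On the same strand, 2 unnamed genes overlap AHR over 46858 and 31435 bases. They have no row in the count table and so could not be analysed, and their effect on the AHR counts was not tested.

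ARNT, the partner that AhR needs to bind DNA and that also pairs with the hypoxia-inducible factors, moved the other way. The gene lies on the minus strand of chromosome 1 (150809713 to 150876708) and has 22 exons. Its sums were 11.8 and 12.2 CPM at 0 h, 15.3 and 12.2 after 0.5 h, 27.5 and 23.1 after 12 h, 21.3 and 22.2 after 24 h, 21.4 and 18.1 after 48 h, and 21.0 and 16.6 after 96 h. All 8 libraries from 12 h onward lay above all 4 before. ARNT rose by 1.08 ± 0.23 (log2, SE) at 12 h against 0 h (edgeR adjusted p = 0.00192), a ratio of 2.11, and this call held under every alternative in which it was tested. Of all genes tested, 8.46% were called higher at 12 h.

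Later changes of ARNT were near the threshold. It rose by 0.86 ± 0.24 at 24 h (edgeR adjusted p = 0.0156), where 7.62% of genes were called higher, and by 0.73 ± 0.25 at 48 h (edgeR adjusted p = 0.0426), where 10.0% were. At 96 h the difference was 0.64 ± 0.28 (edgeR adjusted p = 0.102), with 12.5% of genes called higher. The 24 h call ended without either 0 h library (adjusted p 0.109 without replicate 1 and 0.0779 without replicate 2), without either 24 h library (0.0738 and 0.0651), under DESeq2 (0.102) and with thinned sums (0.0902). The 48 h call ended under 14 of 21 alternatives, and under stricter limits on cells ARNT was too low to be tested. Thinned cells with an ARNT UMI were 25.8% and 25.5% after 12 h and 21.6% and 14.3% after 96 h, against 12.0% and 12.1% at 0 h.

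TIPARP, a mono-ADP-ribosyltransferase that modifies AhR and limits its activity, was the only one of the 3 members with a test that passed at 0.5 h. The gene lies on the plus strand of chromosome 3 (156673235 to 156706770). Its sums were 50.1 and 41.1 CPM at 0 h, 89.2 and 83.0 after 0.5 h, 54.5 and 54.6 after 12 h, 67.9 and 56.7 after 24 h, 42.5 and 39.7 after 48 h, and 54.5 and 33.3 after 96 h. Both 0.5 h libraries lay above every other library. TIPARP rose by 0.91 ± 0.19 (log2, SE), a ratio of 1.89, at 0.5 h against 0 h (edgeR adjusted p = 0.020), where 0.392% of the genes tested were called higher.

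That call rested on all 4 libraries. Without replicate 1 or 2 of 0.5 h the edgeR adjusted p was 0.249 or 0.102, and without replicate 1 or 2 of 0 h it was 0.0928 or 0.594, while the change stayed between 0.77 and 1.06. It was 0.0587 with thinned sums and 0.717 under the stricter limits on cells. No other comparison of TIPARP passed. The nearest was 48 h against 24 h, at -0.60 ± 0.20 (edgeR adjusted p = 0.0869), which passed with the replicate block (edgeR adjusted p = 0.033) and with no filter on low counts, 2 of 22 alternatives. Cells with a TIPARP UMI after thinning were 59.4% and 56.7% after 0.5 h, 41.6% to 49.7% after 12 h and 24 h, 34.1% and 26.0% after 48 h and 41.2% and 34.9% after 96 h, against 34.3% and 30.6% at 0 h. TIPARP-AS1, an antisense gene that overlaps TIPARP over 1212 bases, had 3 to 16 UMIs per library.

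CYP1A1 and AHRR were at the limit of detection throughout and failed the filter on low counts, so 4 of the 6 members were in the fit. CYP1A1, the P450 most closely tied to AhR activation, had 2 UMIs in all, 1 at 0.5 h and 1 at 0 h, each in 1 cell, or 2 of 1871 cells (0.107%, exact interval 0.0129 to 0.386). From 12 h to 96 h its count was 0, which allows up to 0.388 CPM at 12 h and 1.08 CPM at 96 h at a floor of 3 UMIs over both libraries. AHRR, the repressor that competes with AhR for ARNT, had 7 UMIs in 6 cells, 2 after 12 h, 3 after 0.5 h and 2 at 0 h, and none after 24 h, 48 h or 96 h. On the same strand PDCD6-AHRR overlaps AHRR over 116578 bases. PDCD6-AHRR has no row in the count table and so could not be analysed, and its effect on the AHRR count was not tested. No difference between times was detectable in these counts for either gene. No background well held a UMI of either.

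The promoters of these members are shown because CYP1A1, AHRR and TIPARP are all known AhR targets, and of these 3 only TIPARP passed the filter on low counts. The core that AhR and ARNT bind is GCGTG, which the other strand reads as CACGC. A longer form, TNGCGTG, was searched as well, and the other strand reads it as CACGCNA. Both strands of the 250 bases before each RefSeq start were searched (GRCh38.p14, 5 of 6 members matched, 8 entries), and the longer form contains the core. CYP1B1 was the member without an entry, so its promoter was not searched. The core was present in 32.2% of 35116 promoters and the longer form in 4.52%. Sequences run 5′ to 3′ along the gene, with each core in capitals:
TIPARP, chr3:156674340-156674589, plus strand: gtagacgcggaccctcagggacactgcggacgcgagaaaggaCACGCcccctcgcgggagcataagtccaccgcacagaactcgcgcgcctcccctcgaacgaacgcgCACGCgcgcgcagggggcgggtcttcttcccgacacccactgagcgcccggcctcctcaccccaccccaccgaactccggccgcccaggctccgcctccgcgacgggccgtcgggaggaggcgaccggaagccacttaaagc
CYP1A1, chr15:74725529-74725778, minus strand: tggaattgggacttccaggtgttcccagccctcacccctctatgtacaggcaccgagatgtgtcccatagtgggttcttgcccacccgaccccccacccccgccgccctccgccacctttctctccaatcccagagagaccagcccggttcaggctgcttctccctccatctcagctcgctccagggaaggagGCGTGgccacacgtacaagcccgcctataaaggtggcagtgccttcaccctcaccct
AHRR, chr5:321464-321713, plus strand: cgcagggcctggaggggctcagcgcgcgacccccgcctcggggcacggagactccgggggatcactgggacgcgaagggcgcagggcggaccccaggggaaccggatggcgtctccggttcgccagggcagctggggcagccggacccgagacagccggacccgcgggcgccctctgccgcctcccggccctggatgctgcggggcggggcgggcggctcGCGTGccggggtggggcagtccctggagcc
AHR, chr7:17298402-17298651, plus strand: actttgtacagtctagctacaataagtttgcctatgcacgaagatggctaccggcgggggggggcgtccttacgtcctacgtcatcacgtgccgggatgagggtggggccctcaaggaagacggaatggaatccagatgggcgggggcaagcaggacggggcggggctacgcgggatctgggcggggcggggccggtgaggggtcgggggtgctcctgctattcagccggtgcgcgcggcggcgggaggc

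TIPARP had 2 cores in the window printed, CYP1A1 had 1, and AHRR had 1, which was also the only match of the longer form among the 8 entries. The second AHRR entry, not printed, had 2 cores, and the other 2 TIPARP entries, not printed, had 0. Neither the AHR window nor that of ARNT held a core. A match is a description of letters and not a bound site, and no match says only that these letters are not in this window.

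Of the reported AhR target genes outside the 6 members, 7 to 9 of the 14 tested were lower at each time from 12 h onward. The list holds 24 genes gathered from general knowledge of the pathway in other cells. It was drawn up with earlier results of these data known, so its counts and medians are descriptions. At 12 h against 0 h, 2 rose and 7 fell, after 24 h 0 rose (2 at an unadjusted p under 0.05, 0 by DESeq2) and 8 fell, after 48 h 1 rose and 9 fell, and after 96 h 1 rose and 8 fell. Over all tested genes 8.46% were called higher and 5.83% lower after 12 h, and 7.62% and 5.56% after 24 h. These shares were 10.0% and 8.48% after 48 h and 12.5% and 11.1% after 96 h. The median log2 change of the list was -0.69 after 12 h, -1.03 after 24 h, -1.24 after 48 h and -1.34 after 96 h, beside -0.02, -0.01, 0.03 and 0.02 over all tested genes. Many of these genes also respond to other pathways, and their link to AhR in these cells was not tested.

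ALDH3A1, an aldehyde dehydrogenase of xenobiotic metabolism, had the lowest adjusted p of the list. Its sums were 1184 and 1236 CPM at 0 h, 1391 and 954 after 0.5 h, 777 and 608 after 12 h, 559 and 382 after 24 h, 22.7 and 17.0 after 48 h, and 7.78 and 12.0 after 96 h. The change was -0.80 ± 0.20 after 12 h, -5.90 ± 0.26 after 48 h and -6.91 ± 0.30 after 96 h against 0 h, a ratio of 0 h over 96 h of 120.3 (edgeR adjusted p = 0.00709, 6.88e-13 and 3.84e-13). The largest step between neighboring times after 12 h was at 48 h (-4.54 ± 0.25 at 48 h against 24 h, edgeR adjusted p = 2.33e-10), where 2.63% of all tested genes were called lower. The 12 h call ended without replicate 2 of 0 h, without replicate 2 of 12 h and under stricter limits on cells.

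NQO1, a quinone reductase that is also a target of NRF2, fell by less. It stood at 1236 and 1159 CPM after 96 h and 1669 and 1639 CPM after 12 h, against 3164 and 2856 CPM at 0 h. The change was -0.86 ± 0.15 at 12 h and -1.33 ± 0.15 at 96 h (edgeR adjusted p = 0.000128 and 2.12e-07). ABCG2, an efflux transporter, had 12.4 and 17.98 CPM after 96 h and 38.7 and 41.2 CPM after 12 h, against 138.5 and 112.3 CPM at 0 h, changes of -3.03 ± 0.24 and -1.65 ± 0.18. For both genes the groups did not overlap, and no library left out ended these calls.

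The EGF receptor ligands AREG and EREG were low at all times from 12 h. AREG had 0.778 and 1.33 CPM after 96 h, against 106.8 and 166.2 CPM at 0 h, which rests on 3 UMIs after 96 h and 964 at 0 h and gives a ratio of 0.00793 (exact interval 0.00163 to 0.0233, counting error only). EREG had 3.89 and 3.33 CPM at 96 h, against 66.0 and 94.7 CPM at 0 h, a change of -4.47 ± 0.33. Under the stricter limits on cells the AREG calls ended at each time against 0 h, while the change was -4.76 after 12 h, -3.27 after 24 h, -3.03 after 48 h and -6.61 after 96 h. HES1, a transcriptional repressor, was the one gene of the list that passed at 0.5 h, at 275.2 and 280.6 CPM against 47.1 and 60.8 CPM at 0 h (2.37 ± 0.18, edgeR adjusted p = 1.09e-08), and it did not pass later.

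At 96 h against 48 h, 0 of the 14 passed in edgeR's quasi-likelihood test at the adjusted threshold (1 higher and 4 lower at an unadjusted p under 0.05, and 0 by DESeq2), and 0.803% of all tested genes were called higher. At 96 h against 12 h, 0 rose (1 at an unadjusted p under 0.05, 0 by DESeq2) and 6 fell, beside 6.13% and 5.54% of all tested genes called higher and lower, and ALDH3A1 differed by -6.11 ± 0.30.

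**Figure D3:**
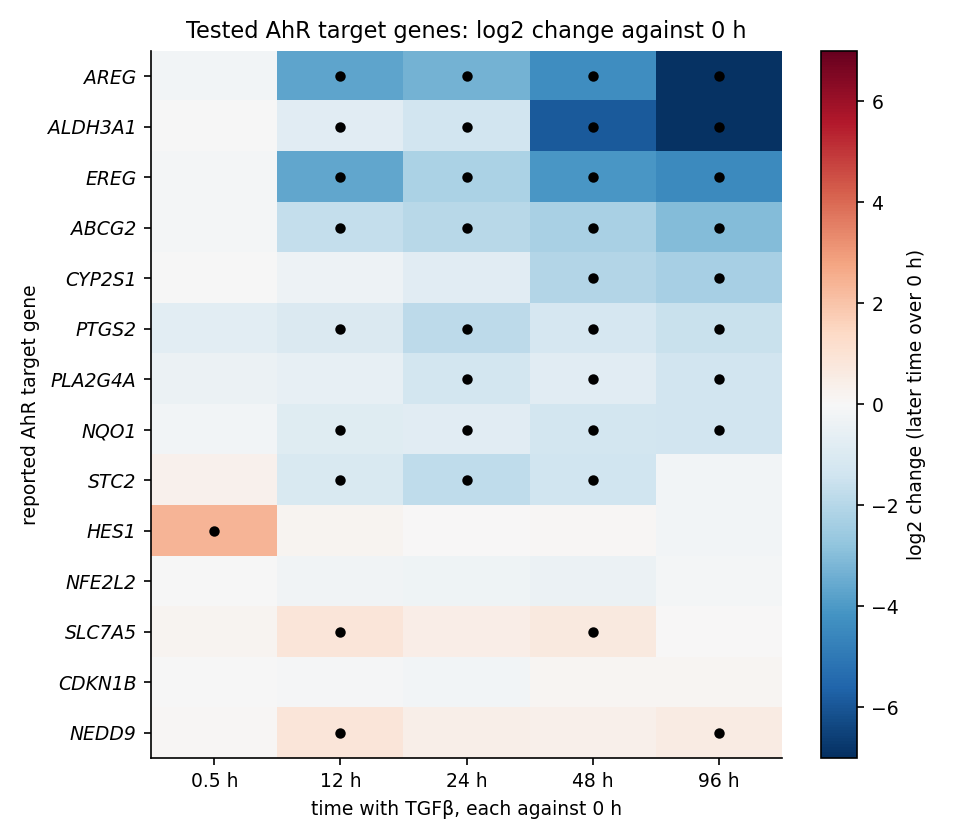
Log2 change of the 14 tested AhR target genes (rows, ordered by the 96 h value) at 5 times against 0 h (columns), with red for higher and blue for lower than 0 h and a black dot where the edgeR adjusted p was under 0.05. At 96 h, 8 genes have a dot on blue and 1, NEDD9, on red, and HES1 has the only dot at 0.5 h.

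Of 15 chaperones, coactivators and corepressors, 14 were tested. At 12 h the list had 2 higher and 0 lower in edgeR's test (3 lower at an unadjusted p under 0.05, 2 by DESeq2), after 24 h 1 and 1, after 48 h 1 and 2, and after 96 h 1 and 6. Over all tested genes 8.46% were higher and 5.83% lower after 12 h, 7.62% and 5.56% after 24 h, 10.0% and 8.48% after 48 h and 12.5% and 11.1% after 96 h, so most of the counts of 1 or 2 of 14 were close to these shares. The 6 that fell at 96 h included HSP90AA1 (-0.71 ± 0.15), the chaperone that holds AhR in the cytoplasm, PTGES3 (-0.61 ± 0.14), its cochaperone p23, SRC (-1.56 ± 0.46), a kinase found in the complex, and NRIP1 (-1.06 ± 0.30), a coregulator. The SRC call at 96 h ended without replicate 2 of 0 h and without either 96 h library, and that of NRIP1 without the same 3 and under stricter limits on cells.

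Other bHLH-PAS proteins, which share the dimerization domain of AhR and ARNT, moved in both directions. Of 16 listed, 11 were tested, and after 96 h against 0 h 4 rose and 2 fell, beside 3 and 2 after 48 h, 2 and 1 after 24 h and 2 and 1 after 12 h. Over all tested genes 12.5% were called higher and 11.1% lower after 96 h and 8.46% and 5.83% after 12 h, so the counts of 1 of 11 were close to these shares. The circadian activator ARNTL, also known as BMAL1, had 26.2 and 25.5 CPM after 12 h and 18.7 and 25.3 CPM after 96 h, against 9.04 and 10.4 CPM at 0 h (1.41 ± 0.24 after 12 h). Its paralog ARNTL2 rose by 1.55 ± 0.21 at 96 h. PER2, a circadian repressor, fell by 2.07 on the log2 scale at 12 h (SE 0.30). HIF1A fell at 48 h (-0.75 ± 0.15) and 96 h (-0.63 ± 0.16). Both HIF1A calls ended under stricter limits on cells, and the 96 h call also without replicate 1 of 0 h and without replicate 1 of 96 h. EPAS1, which encodes HIF-2α, rose at 96 h against 48 h (0.87 ± 0.17), the only gene of the related lists past the threshold there (edgeR adjusted p = 0.00821). That EPAS1 call ended without replicate 2 of 48 h and without either 96 h library.

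The list on the path from tryptophan to kynurenine holds 15 genes, of which 13 had a row and 7 were tested. It includes carriers and enzymes that use kynurenine, so it does not measure the making of ligands. IDO1 and IDO2 had no UMI in any library, and TDO2 had 1 at 0 h and 1 at 0.5 h. At 12 h against 0 h 1 gene rose and 1 fell, beside 8.46% and 5.83% of all tested genes. After 96 h 0 rose (1 at an unadjusted p under 0.05, 0 by DESeq2) and 1 fell, beside 12.5% and 11.1%. KYNU, which cleaves kynurenine, fell to 203.8 and 184.4 CPM at 96 h, against 774.6 and 602.0 CPM at 0 h (-1.83 ± 0.18, edgeR adjusted p = 3.20e-08). SLC7A5, the light chain of a tryptophan and kynurenine carrier, stood at 152.1 and 155.3 CPM at 12 h, against 99.9 and 70.6 CPM at 0 h, a rise of 0.85 ± 0.17 that ended without replicate 2 of 0 h and was -0.35 under the stricter limits on cells.

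Among other P450 genes and their electron donors, 15 of 38 were tested and 0 rose against 0 h in edgeR's test at any time (0 by DESeq2, and 1 at 12 h and 3 at 96 h at an unadjusted p under 0.05). The numbers that fell were 4 after 12 h, 4 after 24 h, 6 after 48 h and 6 after 96 h, in edgeR's test, beside 5.83%, 5.56%, 8.48% and 11.1% of all genes tested. The cytochrome b5 genes CYB5A and CYB5B, which pass electrons to P450s, fell by 1.13 and 1.23 on the log2 scale at 12 h and by 1.80 and 1.40 at 96 h. CYP4F3, a fatty acid hydroxylase, had 13 and 10 UMIs at 12 h, against 55 and 58 at 0 h (-2.40 ± 0.36). Its relative CYP4F11 had 14 and 19 UMIs at 12 h, against 49 and 54 at 0 h (-1.75 ± 0.37). At 96 h CYP4F3 had 1 UMI, against 113 at 0 h, a ratio of 0.0226 (exact interval 0.000566 to 0.128). CYP20A1 rose at 96 h against 12 h (1.06 ± 0.28), a call that ended under DESeq2, without replicate 1 of 12 h and without either 96 h library.

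Of enzymes that clear estrogen and hydrocarbon metabolites, 8 of 15 were tested. EPHX1, microsomal epoxide hydrolase, fell to 42.0 and 38.0 CPM after 96 h and 50.8 and 28.4 CPM after 48 h, against 109.8 and 103.9 CPM at 0 h (-1.42 ± 0.25 and -1.40 ± 0.23). Of the 8, 1 rose and 2 fell at 96 h against 0 h, where 12.5% and 11.1% of all tested genes were called higher and lower. Among genes of the PARP and ADP-ribose family that TIPARP belongs to, 8 of 15 were tested and 0 passed against 0 h at 12 h, 24 h or 48 h in edgeR's test, with 0 at an unadjusted p under 0.05 and 0 by DESeq2. PARP4 passed at 96 h against 0 h (0.84 ± 0.30, edgeR adjusted p = 0.0468), and PARP12 fell at 96 h against 12 h (-1.83 ± 0.48, edgeR adjusted p = 0.0141). The PARP4 call ended without replicate 1 of 0 h (adjusted p = 0.344), without either 96 h library, under DESeq2, with RLE factors, with all genes and with all wells of at least 1000 genes, 7 of 13 alternatives, and that of PARP12 ended without replicate 1 of 12 h, without either 96 h library and under DESeq2.

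The profiles most like that of CYP1B1 over the 12 libraries, by Pearson's r of log2(CPM + 1) among genes with a mean of at least 20 CPM, belonged to FAM20B (r = 0.95), NAMPT (0.95), CPNE8 (0.93), GBE1 (0.92), ID2 (0.91) and DUSP4 (0.91). These r values are descriptions, since the libraries share their times and depths. NAMPT, the enzyme that limits NAD salvage, had 70.0 and 72.6 CPM after 96 h and 35.4 and 44.7 CPM after 12 h, against 108.2 and 112.3 CPM at 0 h. ID2, an inhibitor of bHLH factors, had 126.0 and 144.5 CPM after 96 h and 32.4 and 50.7 CPM after 12 h, against 172.2 and 180.7 CPM at 0 h. FAM20B, a xylose kinase of proteoglycan synthesis, stood at 37.3 and 32.0 CPM after 96 h and 23.4 and 20.5 CPM after 12 h, against 37.0 and 41.4 CPM at 0 h. All 6 had a lower level from 12 h to 48 h and a higher one at 96 h, with a smaller span than CYP1B1. This shared course follows from how they were picked, by likeness to CYP1B1 over the same libraries, and is no separate result. Ranked by Spearman's rho, only ID2 of the 6 remained among the nearest 6.

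**Figure D4:**
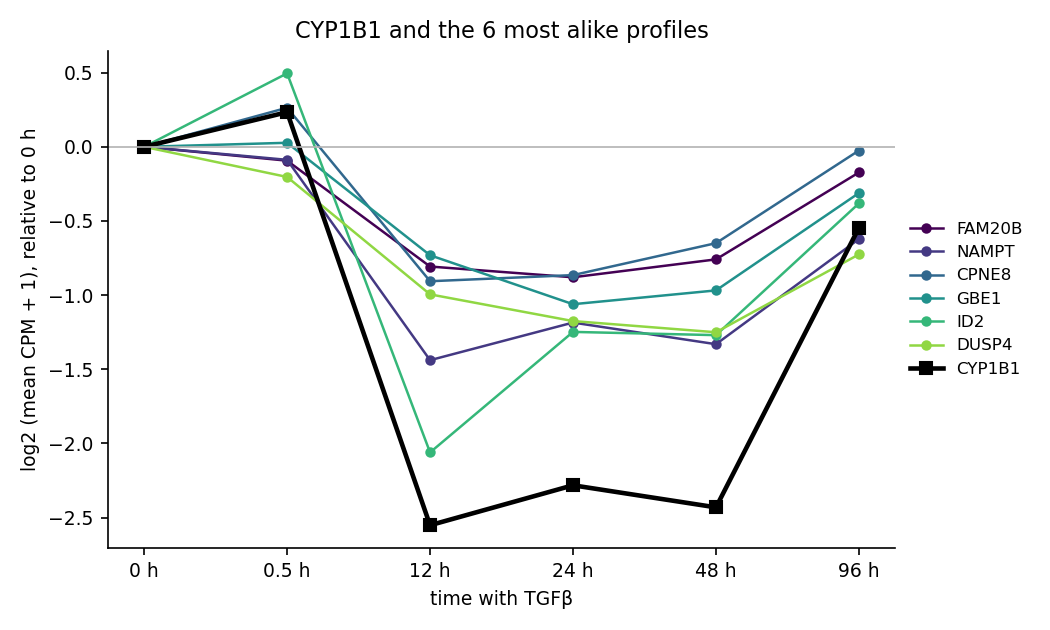
Mean level of 2 libraries at each time, as log2(CPM + 1) relative to 0 h, for CYP1B1 (black squares) and the 6 genes with the highest r (colored circles). Every line is below 0 from 12 h to 48 h and closer to 0 at 96 h, and CYP1B1 has the lowest values at 12 h, 24 h and 48 h. The shared shape follows from picking the 6 genes by their likeness to CYP1B1.

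For the other members, the nearest genes with a mean of at least 10 CPM were listed. AHR was nearest to CYB561D2 (r = 0.94), IGFBP1 (0.93) and NR2F2 (0.93). ARNT was nearest to EML3 (0.96), ANGPTL4 (0.95) and ACLY (0.95). For TIPARP the nearest were KLF10 (r = 0.87), AEBP2 (0.84) and MAFF (0.84). KLF10, a TGFβ-inducible early gene, had 297.1 and 330.2 CPM at 0.5 h, against 92.8 and 80.2 CPM at 0 h.

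Within libraries, thinned cells with and without a CYP1B1 UMI were set side by side. AHR UMIs per cell were higher in cells with CYP1B1 in 4 of 12 libraries and lower in 7, ARNT was higher in 8 and TIPARP in 7. These are descriptions of cells that share a library and carry no p.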

How the data were processed

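CEL-Seq2 libraries of A549 cells were analysed as whole-number UMI counts per gene and well, as deposited by the authors. Per the labels the authors used UMI-tools, Trim Galore 0.6.7, HISAT2 2.2.1 and featureCounts 2.0.1 on GRCh38. The sources used here give neither the annotation release nor the strand setting. Wells with 100 to 40000 UMIs, 2000 to 7000 genes and at most 35% mitochondrial UMIs were kept, and each library was summed over its kept cells.

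Sums over protein-coding genes (1264044 to 4500036 UMIs per library) were fitted over all 12 libraries with edgeR 4.0.16 in R 4.3.3 (TMM, filterByExpr, robust quasi-likelihood test, 9 comparisons of times, Benjamini-Hochberg threshold 0.05), which left 10465 of 15871 genes. The SE of a log2 change was its size divided by the square root of F. The biological coefficient of variation was 0.129. The fit was also run on simulated counts with known changes, whose means and spread came from the fit to these data. The results of that run are not given here. Intervals of shares are exact (Clopper-Pearson, 95%) and, like floors of 3 UMIs, cover counting error only. No doublet caller was run.

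Named genes were all members, at most 6 genes past the threshold from each of 7 related lists in order of lowest adjusted p, the genes nearest in profile and the overlapping partners of the members. NEDD9, IDO1, IDO2 and TDO2 fall outside this rule and were named after their values were seen, NEDD9 in a caption. The members and lists were chosen with earlier results of these data known. Alternatives were DESeq2 1.42.0, RLE factors, no low-count filter, all genes, only the 4 libraries compared, a replicate block, stricter or looser cells, thinned sums, equal cell weights, no TMM, other thinning depths, other neighbor measures and each library left out. Sums without the cell highest in CYP1B1 were added after the data were seen. Some genes are not reported here.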

Additional observations from a re-analysis of the deposited data

How the results depend on the processing

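Of the 8 calls of AHR, ARNT and TIPARP, 8 were kept with RLE factors and with the replicate block, 6 under DESeq2 and 5 with thinned sums, and 1 of 5 was kept under stricter limits on cells, which left few cells. Low counts limit all 96 h values, and CYP1A1 and AHRR throughout. The causes of the changes below were not tested.

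The number of members other than CYP1B1 past the threshold, 1 at 0.5 h against 0 h, was 0 under stricter limits and with thinned sums (0 to 1 with a library left out). At 12 h it was 2, 0 under stricter limits and 1 with thinned sums (2 to 2 with a library left out). At 24 h it was 2, with 1 under DESeq2, 0 under stricter limits and 1 with thinned sums (1 to 2 with a library left out). At 48 h it was 2, with 1 under DESeq2, no filter, all genes or only the 4 libraries compared, and 0 under stricter limits (1 to 2 with a library left out). At 96 h it was 1, and 2 with all wells of at least 1000 genes (1 to 1 with a library left out). At 48 h against 24 h it was 0, and 1 with no filter or with the replicate block.

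The number of related genes past the threshold, under stricter limits on cells, was 5 after 12 h, 6 after 24 h, 9 after 48 h and 11 after 96 h against 0 h, 1 at 48 h against 24 h and 5 at 96 h against 12 h, where the fit as reported gave 20, 19, 25, 32, 6 and 18. At 24 h against 12 h it was 0 as reported, and 3 with no filter and 3 with the replicate block. At 48 h against 24 h it was 12 with no filter and 10 with all wells. At 96 h against 48 h it was 1 as reported, 2 under DESeq2, 7 with no filter, 6 with the replicate block and 4 with all wells. With a library left out it was 15 to 20 at 12 h, 14 to 20 at 24 h, 22 to 26 at 48 h and 22 to 33 at 96 h against 0 h, 4 to 7 at 48 h against 24 h, 0 to 1 at 96 h against 48 h and 7 to 19 at 96 h against 12 h.

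Under stricter limits CYP1B1 averaged 100.1 CPM at 0 h, 68.3 after 0.5 h, 19.6 after 12 h, 10.5 after 48 h and 29.1 after 96 h. It was 110.3 CPM at 0.5 h with cells weighted equally, and 39.4 at 96 h without the highest cells. With a library left out it was 81.1 to 93.6 at 0 h, 100.1 to 105.7 at 0.5 h, 12.1 to 16.0 at 12 h, 14.7 to 19.6 at 24 h, 12.7 to 18.1 at 48 h and 45.9 to 73.1 at 96 h. The mean share of cells with a UMI, in the order of the times, was 33.6%, 39.1%, 8.002%, 7.88%, 8.99% and 19.8% when thinned to 0.5 of the depth, and 62.8%, 72.5%, 20.7%, 20.3%, 19.4% and 40.0% unthinned. It was 54.5% at 0.5 h without the highest cells. With a library left out it was 44.6% to 49.1%, 54.7% to 55.0%, 12.5% to 16.9%, 12.2% to 16.2%, 14.0% to 17.8% and 22.2% to 33.3%.

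The CYP1B1 change at 0.5 h against 0 h was -0.31 under stricter limits, where it was 0.24 as reported. Those limits gave -1.58 at 96 h against 0 h, 0.91 at 96 h against 48 h and 0.94 at 96 h against 12 h, and without the highest cells 96 h against 0 h was -1.10. With a library left out the change against 0 h was 0.13 to 0.34 at 0.5 h, -2.85 to -2.41 at 12 h, -2.54 to -2.15 at 24 h, -2.78 to -2.28 at 48 h and -0.94 to -0.27 at 96 h. It was 0.06 to 0.48 at 24 h against 12 h, -0.43 to 0.10 at 48 h against 24 h, 1.61 to 2.27 at 96 h against 48 h and 1.67 to 2.33 at 96 h against 12 h. Under stricter limits SLC7A5 at 12 h was -0.35 and HSD17B11 at 24 h was -0.038, opposite to the reported sign. Spearman ranking kept 1 of the 6 nearest genes.

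At every time each replicate number went with 1 set of cell barcodes, which the labels do not call a batch. The numbers were not taken to pair the libraries: of 15 pairs of times, 6 had a correlation of deviations over 0.1 (-0.09 to 0.28). The replicate block ended none of the 106 calls of related genes.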
